A study of Mus musculus with 4 samples.

Results

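The genes described here are 10 genes of MHC class I presentation, namely H2-K1, H2-D1, B2m, Tap1, Tap2, Tapbp, Psmb8, Psmb9, Psmb10 and Nlrc5. They were picked out by name from 24418 genes listed in the deposited table, with earlier results of these data known. All 10 were in the table, and all 10 were among the 11392 genes that were tested, for which 2 or more libraries had a normalized count of 10 or higher. A normalized count is the number of reads on a gene divided by a size factor of its library.

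RNA was measured in Treg cells, taken as CD4+ YFP+ cells from the spleens and lymph nodes of Foxp3YFP-Cre mice, in which YFP-Cre is made from the Foxp3 locus. The mice were 8 to 12 weeks old and sex-matched in the study. The sorted cells were stimulated for 3 h with 100 ng/mL TSLP, an epithelial cytokine, or with PBS alone, and both groups carried the same allele. Each group had 2 libraries (PBS 1 and PBS 2, TSLP 1 and TSLP 2), with 11328132, 10724392, 11761234 and 10271571 reads on genes in that order. The labels do not say whether the 2 samples of a group came from separate mice or cultures, so the p-values measure only the spread between these samples, which may be technical.

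MHC class I molecules show peptides from the inside of the cell to CD8 T cells and NK cells, on nearly every nucleated cell and on T cells themselves. The proteasome, in which the interferon-inducible subunits Psmb8, Psmb9 and Psmb10 can replace the constitutive ones, cuts proteins into peptides, and the Tap1-Tap2 transporter carries these into the endoplasmic reticulum. There tapasin, the product of Tapbp, tethers the transporter to heavy chains (H2-K1, H2-D1) bound to the light chain B2m, and Nlrc5 is the transactivator that works with DNA-bound factors at the promoters of these genes.

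The promoters of both heavy chains and of B2m are shown first, because these 3 genes were the most abundant members and their promoters share a spaced pair of short motifs. The capitals mark TGACG, a CRE-like core (part of the X box), and ATTGG, an inverted CCAAT box (the Y box), with 20 bases between them.
H2-K1: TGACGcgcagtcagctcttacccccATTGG
H2-D1: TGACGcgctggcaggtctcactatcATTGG
B2m: TGACGacctccggatctgagtccggATTGG
The stretches are RefSeq sequence of build GRCm38.p6, written 5′ to 3′ on the strand of the gene. They lie at chr17:34000359-34000388 (minus strand), chr17:35262993-35263022 (plus strand) and chr2:122147609-122147638 (plus strand), and begin 41, 101 and 78 bases before the RefSeq gene start. The H2-K1 and H2-D1 stretches were identical at 23 of 30 bases, against 13 of 30 for H2-K1 and B2m and 12 of 30 for H2-D1 and B2m.

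Among 32851 RefSeq promoter entries of 300 bases (250 before and 50 after a gene start), 0.0944% held this spaced pair on either strand. These 31 entries belonged to 27 of 27025 genes, and among all genes listed for this work they were H2-K1, H2-D1, B2m and the class I-like gene H2-M3. Each motif alone was common, with TGACG in 20.8% of the entries and ATTGG in 37.4%. Farther upstream, both heavy chain promoters held a kB-like motif, GGGGATTCC, and an IRF core, TTTCNNTT, with 12 bases between them and the letters of both in capitals.
H2-K1: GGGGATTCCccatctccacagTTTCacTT
H2-D1: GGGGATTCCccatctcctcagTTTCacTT
They lie at chr17:34000430-34000458 and chr17:35262923-35262951 and were identical at 28 of 29 bases. GGGGATTCC was in 0.250% of all entries, TTTCNNTT was in 23.9%, and 4 entries, of H2-K1, H2-D1 and H2-Q6, held both at this spacing. No motif overlapped another in these stretches. A promoter entry was found for 8 of the 10 members, without Tap2 and Nlrc5. These matches describe letters and not bound factors.

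In mm10, with gene spans from GENCODE release M21, 7 of the 10 members lie on chromosome 17: Tapbp at chr17:33915899-33929292, H2-K1 at chr17:33996017-34000347, Psmb9 at chr17:34181987-34187764, Tap1 at chr17:34187553-34197225, Psmb8 at chr17:34197721-34201454, Tap2 at chr17:34203527-34216321 and H2-D1 at chr17:35262730-35267499. B2m lies at chr2:122147686-122153083, Nlrc5 at chr8:94434356-94527272 and Psmb10 at chr8:105935735-105938444. Tap1 and Psmb9 are transcribed away from each other from RefSeq starts 226 bases apart, and their GENCODE spans overlap. Since the strand setting of the counting was not given in the sources used here, reads from the overlap may count for either gene. Of all 50-base windows in annotated transcripts, 9.63% of those of H2-K1 and 12.8% of those of H2-D1 also occurred in another gene, mostly other class I genes, so their counts are uncertain to that extent. The shares were 23.2% for Tapbp, 11.9% for Psmb8 and 11.6% for Tap2, mostly through overlapping gene models, 4.19% for Psmb9, 3.33% for Tap1, 0.338% for Nlrc5 and 0% for B2m and Psmb10.

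The sorted cells carried the markers of Treg cells. Foxp3, the lineage factor, had 2437 and 5068 normalized counts in PBS 1 and PBS 2 and 4507 and 5041 in TSLP 1 and TSLP 2. Ctla4 ranged from 12251 to 14097 over the 4 libraries, Ikzf2 from 6234 to 11037 and Cd4 from 5626 to 6463. Together the 8 Treg and T cell markers in the table summed to 4018, 4453, 4350 and 4720 CPM (reads on a gene scaled to the read total of its library) in PBS 1, PBS 2, TSLP 1 and TSLP 2. The 20 markers of other cells summed to 79.1, 64.0, 58.5 and 70.2 CPM in the same order, with Cst3 as the most abundant gene at 302 to 483 normalized counts. Cd8b1 followed at 76.0 to 116, and Cd68 at 169 and 66.0 with PBS and 55.6 and 16.7 with TSLP. The other myeloid and B cell genes had lower means. Lyz2 had 0.969 and 43.0 with PBS and 34.9 and 41.8 with TSLP, and the B cell genes Cd79a and Cd79b had 0 and 6.78 in PBS 1 and 9.41 to 90.9 in the other libraries. These 3 were lowest in PBS 1, whereas Cst3, Cd8b1 and Cd68 were highest there. By cell type, the 9 myeloid and dendritic markers summed to 64.4, 45.7, 44.0 and 45.8 CPM in PBS 1, PBS 2, TSLP 1 and TSLP 2, and the 4 B cell markers to 0.618, 10.4, 5.02 and 9.35 CPM. Of the 20 markers, 5 were at 0 in every library. The myeloid and dendritic markers Adgre1 and Flt3, the NK marker Ncr1 and both globin genes had no reads, where 0 reads allow up to 3 reads or 0.292 CPM. Antigen-presenting cells also express class I genes, and the part of such cells in the results below was not tested. In bulk RNA, a change in the number of cells of a type cannot be told apart from a change in RNA per cell.

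One library stood apart from the others. In PBS 1, genes with long transcripts were low and genes with short transcripts were high. Over 10488 genes, Spearman's rho between the length of the principal coding transcript and a library's deviation from the mean of the 4 libraries was -0.409 in PBS 1. It was 0.263 in PBS 2, 0.226 in TSLP 1 and 0.0933 in TSLP 2. These values share the libraries and describe them across genes, which are not replicates. Foxp3 was also lowest in PBS 1, but the trend over length gave it -0.06 there and the remaining -0.69 (log2) lay off the trend. The fold changes of the members and the medians of the lists are therefore given with and without this library, and the ratios for each library.

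**Figure D1:**
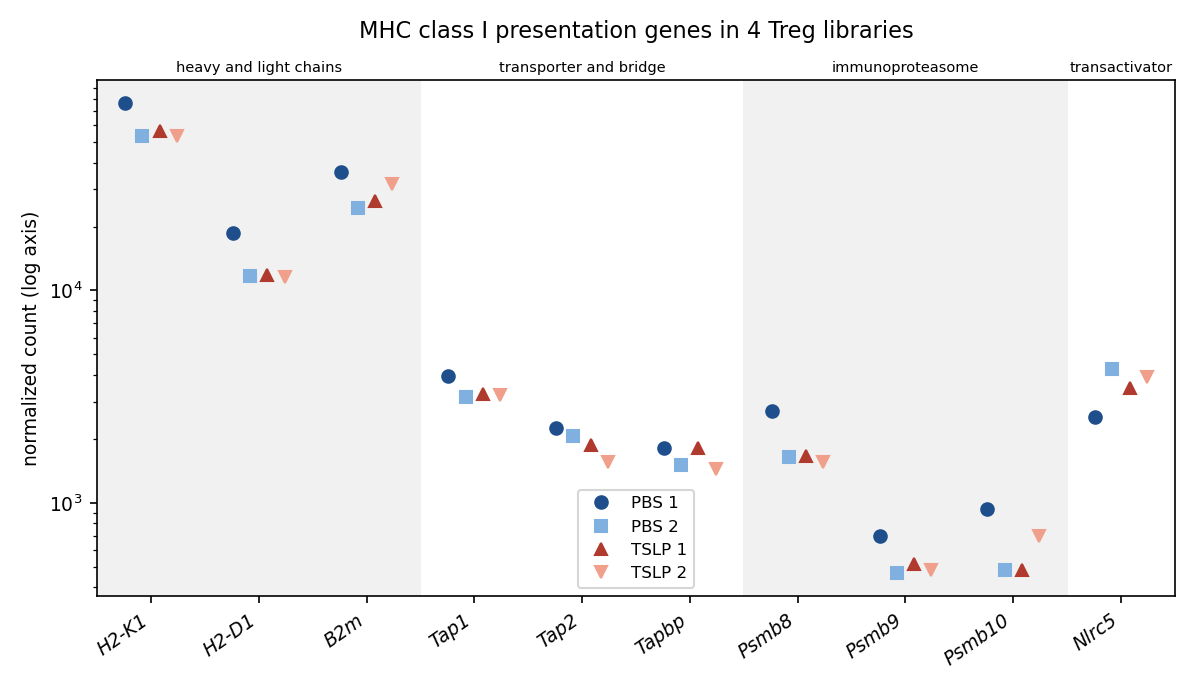
Normalized counts (log axis) of the 10 members in each of the 4 libraries, 1 point per library, ordered by role. PBS 1 is the highest point for 9 members and the lowest for Nlrc5, while PBS 2 lies among or close to the TSLP points for most members.

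No member passed the test between TSLP-stimulated and control Treg cells. Of the 10, 9 were lower and 1, Nlrc5, was higher on average with TSLP, with log2 fold changes from -0.39 for Psmb8 to 0.17 for Nlrc5 and a median of -0.20. The median over all genes tested was 0.01. By limma on log2(normalized count + 1), a scale that understates changes of low genes, 0 of 10 members had an adjusted p under 0.05 (Benjamini-Hochberg, over all genes tested), as did 0% of all genes, and the adjusted p of each member was 0.9999. At an unadjusted p under 0.05 there were again 0 of 10 members, where 1.69% of all genes (192) passed, 0.772% higher and 0.913% lower with TSLP. edgeR and DESeq2 on the recovered reads also called 0 members and 0 genes at an adjusted p under 0.05, and each gave 234 genes and 0 members at an unadjusted p under 0.05.

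The heavy chain H2-K1 was the most abundant member. It had 75957 and 53468 normalized counts in PBS 1 and PBS 2, and 56195 and 53064 in TSLP 1 and TSLP 2. PBS 1 alone was high, and the other 3 libraries lay close together, so the groups overlapped. The log2 fold change was -0.22 ± 0.35 (SE, n = 2 and 2, limma adjusted p = 0.9999). The 95% interval, written as a fold, ran from 0.494 to 1.49. Without PBS 1 the log2 fold change was 0.03.

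H2-D1, the other classical heavy chain, had the same form. Its normalized counts were 18549.5 and 11753 with PBS and 11798 and 11563 with TSLP. PBS 2, TSLP 1 and TSLP 2 differed little, whereas PBS 1 exceeded PBS 2 by 1.58-fold. The log2 fold change of -0.34 ± 0.29 (SE), with an interval from 0.505-fold to 1.24-fold, became -0.01 without PBS 1. The ratio of H2-K1 to H2-D1 in counts per kilobase of transcript was 5.32 and 5.91 with PBS and 6.18 and 5.96 with TSLP. Both TSLP ratios were above both PBS ratios, but PBS 2 lay just under TSLP 2, and PBS 1 was the lowest. This separation was not tested.

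The light chain B2m had 36241 and 24375 normalized counts with PBS and 26246 and 31574 with TSLP. Here TSLP 2 also stood above PBS 2 and TSLP 1, and the TSLP values lay between the PBS values. The log2 fold change was -0.05 ± 0.32 (SE), with an interval from 0.588-fold to 1.60-fold, and 0.24 without PBS 1. Per kilobase, B2m stood at 0.898, 0.858 and 0.879 of H2-K1 in PBS 1, PBS 2 and TSLP 1 and at 1.12 in TSLP 2. With 2 libraries against 2, an exact permutation test of such a ratio cannot give a two-sided p below 0.333, and none was run.

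Of the peptide transporter, Tap1 had 3978 and 3155 normalized counts with PBS and 3267 and 3223 with TSLP. The TSLP values again lay between those of PBS 1 and PBS 2 (log2 fold change -0.13 ± 0.22, SE, interval 0.647-fold to 1.30-fold), and without PBS 1 the log2 fold change was 0.04. Tap2, which forms the transporter with Tap1, had 2261 and 2056 with PBS and 1867 and 1553 with TSLP. It was the single member whose groups did not overlap, with both TSLP libraries below both PBS libraries. Among all genes tested, 14.4% lay below in this way and 14.5% above. Its log2 fold change was -0.34 ± 0.22 (SE, limma adjusted p = 0.9999), and the interval ran from 0.560-fold to 1.11-fold. Without PBS 1 it was -0.27 and without PBS 2 -0.41. The ratio of Tap1 to Tap2 per kilobase was 2.05 and 1.79 with PBS and 2.04 and 2.42 with TSLP, so that TSLP 2 was the highest and PBS 2 the lowest.

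Tapbp, the bridge between transporter and heavy chain, had 1818 and 1505 normalized counts with PBS and 1814 and 1444 with TSLP. Each group held a high and a low library, and the means differed by less than the spread in either group. The log2 fold change was -0.03 ± 0.23 (SE), with an interval from 0.679-fold to 1.41-fold, and 0.11 without PBS 1.

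Among the immunoproteasome subunits, Psmb8 had 2696 and 1651 normalized counts with PBS and 1658 and 1556 with TSLP. PBS 1 exceeded PBS 2 by 1.63-fold, while PBS 2 and TSLP 1 were nearly equal. This gave the most negative log2 fold change of the members, -0.39 ± 0.27 (SE, interval 0.5005-fold to 1.16-fold), which was -0.04 without PBS 1. Psmb9 had 701 and 469 with PBS and 516 and 484 with TSLP (-0.20 ± 0.29, SE, interval 0.552-fold to 1.38-fold). Psmb10 had 932 and 482 with PBS and 483 and 695 with TSLP (-0.21 ± 0.35, SE, interval 0.496-fold to 1.51-fold). Both had PBS 1 as the highest library and overlapping groups, and without PBS 1 the log2 fold changes were 0.09 for Psmb9 and 0.26 for Psmb10.

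Each of these subunits takes the place of a constitutive one in the assembled proteasome. Psmb8 stood at 3.26 and 2.79 times its counterpart Psmb5 per kilobase with PBS, and at 3.39 and 3.22 times with TSLP. Psmb10 stood at 0.895 and 0.661 of Psmb7 with PBS and at 0.541 and 0.666 with TSLP. For Psmb9 against Psmb6 the ratios were 0.271 and 0.476 with PBS and 0.402 and 0.336 with TSLP. The first ratio was above 1 and the other 2 were below 1 in every library, and the groups overlapped for Psmb8 and Psmb9. For Psmb10 the PBS 2 ratio lay just under that of TSLP 2, so these groups overlapped as well.

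Nlrc5, the transactivator, was the only member with a higher mean log2 value with TSLP. It had 2525 and 4270 normalized counts with PBS and 3478 and 3915 with TSLP. PBS 1 was the lowest library and PBS 2 the highest, and both TSLP values lay between them. The log2 fold change was 0.17 ± 0.28 (SE), with an interval from 0.729-fold to 1.73-fold, and -0.21 without PBS 1. Its transcript, 7578 bases, is the longest among the members, the others being 860 bases (B2m) to 3442 bases (Tap2).

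**Figure D2:**
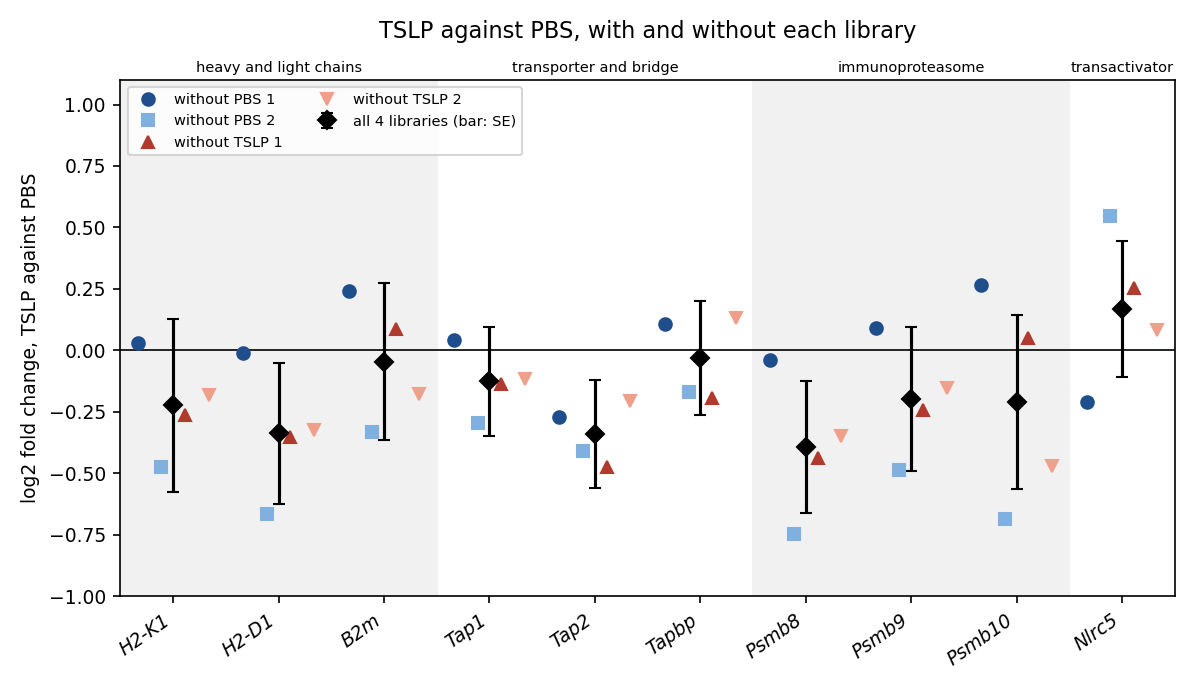
Log2 fold change of each member, TSLP against PBS, from all 4 libraries (black, bars show the SE) and with each library left out in turn (coloured points). The points without PBS 1 lie close to or above 0 except for Tap2 and Nlrc5, and the points without PBS 2 are the most negative for 7 members and the highest for Nlrc5.

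For every member except Tap2, the 2 PBS libraries differed from each other by more on the log2 scale than the groups did. After the values had been seen, the place of PBS 1 was counted. It was the highest library for 9 of 10 members, where 32.4% of all genes tested had it highest, and the lowest for Nlrc5, where 34% of all genes had it lowest. The median over members of PBS 1 minus the mean of the other 3 libraries was 0.45 on the log2 scale, against 0.01 over all genes tested. Together the 10 members took 1.33% of all reads in PBS 1 (95% Wilson interval 1.32% to 1.33%), 0.962% in PBS 2, 0.969% in TSLP 1 and 1.02% in TSLP 2. These intervals cover counting error only. H2-K1 had the highest value of any gene in PBS 1, and Eef2, a translation elongation factor, had it in the other 3 libraries.

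Part of this deviation lay on the trend over transcript length. The trend alone placed PBS 1 above the mean of the 4 libraries by 0.42 for B2m, 0.25 for H2-K1 and 0.25 for Psmb8, and below it by -0.35 for Nlrc5 (log2). Relative to the trend, PBS 1 stood at -0.11 for B2m and -0.12 for Nlrc5, but at 0.34 for H2-D1, 0.30 for Psmb8, 0.26 for Psmb10 and 0.25 for Tap2. PBS 1 lay above the trend for 8 of 10 members, where 48.8% of all genes lay above it, and the median over members was 0.15 against -0.01 over all genes. With the trend removed it was still the highest library for 7 members, where 30.4% of all genes had it highest. Whether transcript length caused the deviation was not tested.

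**Figure D3:**
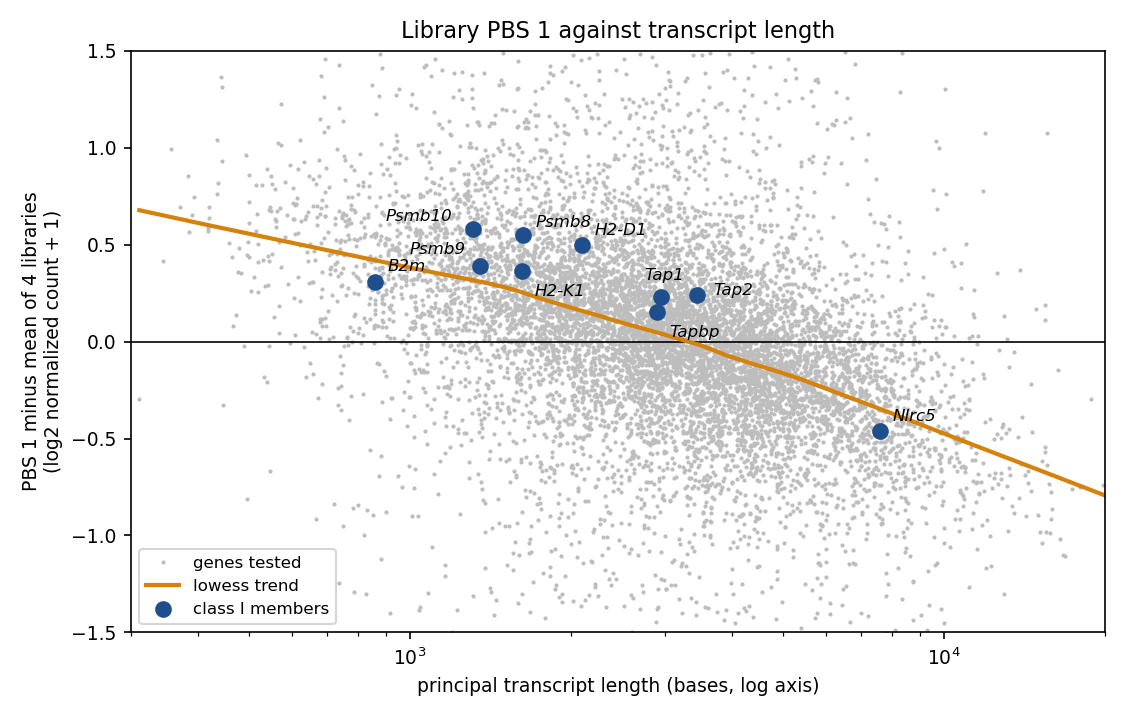
Deviation of PBS 1 from the mean of the 4 libraries (log2 normalized count + 1) against the length of the principal transcript (log axis) for 10488 genes (grey), with the lowess trend (orange) and the 10 members (blue); 826 genes lie beyond the limits of the vertical axis. The trend falls with length, B2m and Nlrc5 lie just below it and the other 8 members above it.

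Leaving out either PBS library changed the comparison of the members. Without PBS 1, the log2 fold changes of the 10 members had a median of 0.04 and ranged from -0.27 (Tap2) to 0.26 (Psmb10), and limma called none at an adjusted p under 0.05 or an unadjusted p under 0.05. Without PBS 2, where PBS 1 was the only control and was assumed to vary like the TSLP libraries, the median was -0.44. limma then called 4 of 10 members at an adjusted p under 0.05, where 7.98% of all genes were called, and 7 of 10 at an unadjusted p under 0.05, where 21.6% of all genes passed. These 4 were H2-D1 (-0.67, adjusted p = 0.00179), Psmb8 (-0.75, adjusted p = 0.00906), H2-K1 (-0.48, adjusted p = 0.0291) and Nlrc5 (0.55, adjusted p = 0.0443). With both PBS libraries in the fit none of them was called.

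The members fell into steps of abundance that were alike in all libraries. In CPM per kilobase of transcript, H2-K1 was at 3384 ± 593 and B2m at 3164 ± 566 (mean ± SD over the 4 libraries of both groups). They were the first and second of 10488 genes ranked in this way. Their ranges overlapped, and H2-K1 was above B2m in 3 libraries of 4. H2-D1 followed at 586 ± 145 CPM per kilobase and overlapped neither neighbour in this order. Psmb8 and Tap1, at 107 ± 29.6 and 106 ± 11.2, could not be told apart, and both lay above the next gene in all 4 libraries. Tapbp (52.1 ± 5.50), Tap2 (51.6 ± 7.81), Psmb10 (45.4 ± 14.9), Nlrc5 (43.1 ± 9.65) and Psmb9 (36.8 ± 6.97) formed the lowest step, and each overlapped its neighbours there.

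The genes around this pathway did not pass the test either. Of the 11 further genes for loading and peptide trimming, 5 were higher and 6 lower with TSLP, and 0 had an unadjusted p under 0.05 by limma (median log2 fold change -0.09, 0.12 without PBS 1, and 0.04, -0.11 and -0.06 without PBS 2, TSLP 1 and TSLP 2). The most abundant was the chaperone Hspa5, with 22517 and 13280 normalized counts with PBS and 18655 and 13245 with TSLP. Calreticulin (Calr) had 13913 and 8361 with PBS and 10123 and 8181 with TSLP, and Pdia3, the disulfide isomerase of the loading complex, 6520 and 4566 with PBS and 4970 and 5202 with TSLP. For all 3, as for the heavy chains, PBS 1 was the highest library and the groups overlapped.

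Of the 8 proteasome counterparts and activators, 2 were higher and 6 lower, 0 with an unadjusted p under 0.05 (median -0.11, 0.13 without PBS 1, and -0.30, 0.06 and -0.31 without PBS 2, TSLP 1 and TSLP 2). The activator subunit Psme1 had 2347 and 1981 normalized counts with PBS and 1742 and 2153 with TSLP, and Psme3 had 1720 and 1692 with PBS and 1468 and 1865 with TSLP. Psme4, a further activator with a transcript of 6491 bases, had 1260 and 1621 with PBS and 1914 and 1859 with TSLP (log2 fold change 0.40 ± 0.23, SE, with 0.22 without PBS 1 and 0.58 without PBS 2). PBS 1 was its lowest library. Among the 8 genes, Psme4 was the 1 with both TSLP libraries above both PBS libraries, and Psmb5 the 1 with both below, at 457 and 327 with PBS and 270 and 266 with TSLP (log2 fold change -0.52 ± 0.32, SE, and -0.28 without PBS 1), where 14.5% and 14.4% of all genes tested lay above and below.

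Of 19 non-classical and class I-like genes, 14 passed the filter, 5 higher and 9 lower with TSLP, and 0 had an unadjusted p under 0.05 (median -0.20, -0.14 without PBS 1, and -0.34, -0.37 and -0.20 without PBS 2, TSLP 1 and TSLP 2). H2-Q4 had 11057 and 9434 normalized counts with PBS and 9180 and 8297 with TSLP (log2 fold change -0.23 ± 0.24, SE, with -0.11 without PBS 1 and -0.34 without PBS 2). H2-T23, which encodes Qa-1, had 2030 and 1988 with PBS and 1722 and 1558 with TSLP (-0.29 ± 0.21, SE, and -0.28 without PBS 1). In both genes both TSLP libraries were below both PBS libraries, as they were in 6 of the 14 genes, while 2 of the 14 had both above (14.4% and 14.5% of all genes tested). The 6 included H2-Q10 and the 2 included Fcgrt. Each of these passed the filter only through the group where it was high, so the filter favoured that separation. H2-T10 had 1262 and 791 with PBS and 882 and 745 with TSLP. Part of the sequence of these genes is shared, mostly with other class I genes or pseudogenes, since 36.4% of the 50-base windows of H2-Q4 and 14.5% of those of H2-T23 occurred in another gene, and H2-Q6 and H2-Q7 were listed at 0 reads in all libraries, so the values of H2-Q4 and H2-T23 are uncertain to that extent.

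The factors that act on class I promoters showed no common direction, with 8 of 14 higher and 6 lower, 0 with an unadjusted p under 0.05, and a median of 0.02 (-0.06 without PBS 1, and 0.05, 0.0014 and 0.04 without PBS 2, TSLP 1 and TSLP 2). Nfkb1, a kB-binding subunit, had 13746 and 16391 normalized counts with PBS and 15677 and 17221 with TSLP, and its partner Rela had 3317 and 3794 with PBS and 3622 and 3591 with TSLP. Irf1, an interferon-inducible activator, had 3592 and 2865 with PBS and 3408 and 3088 with TSLP. The groups overlapped for all 3. Of the 10 genes tested for interferon receptors and signalling, 4 were higher and 6 lower, again 0 with an unadjusted p under 0.05 (median -0.07, 0.08 without PBS 1, and -0.15, 0.01 and 0.01 without PBS 2, TSLP 1 and TSLP 2). Jak1 had 11166 and 13028 with PBS and 14402 and 13451 with TSLP, and Jak2 8610 and 9665 with PBS and 10597 and 9895 with TSLP. Both kinases lay above both PBS libraries in both TSLP libraries (log2 fold changes 0.21 ± 0.25 and 0.17 ± 0.23, SE), and without PBS 1 their log2 fold changes were 0.095 and 0.083. Ifngr1, the ligand-binding chain of the interferon-gamma receptor, had 11173 and 8019 with PBS and 10469 and 9779 with TSLP. The interferon-gamma gene itself, Ifng, named here after its values were seen, had 146 and 52.0 with PBS and 55.6 and 89.9 with TSLP. Its highest library was PBS 1, as it was for most members and for 32.4% of all genes tested. A link between Ifng and the members was not tested.

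MHC class II genes, which present peptides to CD4 T cells, were low in sum compared with the class I members. Which cells in this sort their reads came from was not tested. The 11 genes summed to 149, 120, 132 and 154 CPM in PBS 1, PBS 2, TSLP 1 and TSLP 2, against 13266, 9617, 9686 and 10161 CPM for the 10 class I members. The invariant chain Cd74 was the most abundant at 814 to 1082 normalized counts, H2-Ob had 197 to 300 and H2-DMa 41.0 to 151. Per kilobase of transcript Cd74 had a mean of 61.5 CPM, above Tapbp (52.1) and the other members of the lowest step. Of the 8 that passed the filter 5 were higher and 3 lower with TSLP, 0 with an unadjusted p under 0.05 (median 0.15). This median was 0.53 without PBS 1, but -0.09 without PBS 2, -0.12 without TSLP 1 and -0.20 without TSLP 2. Ciita passed the filter only through the PBS libraries and H2-Eb1 only through the TSLP libraries, so the filter favoured their directions.

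**Figure D4:**
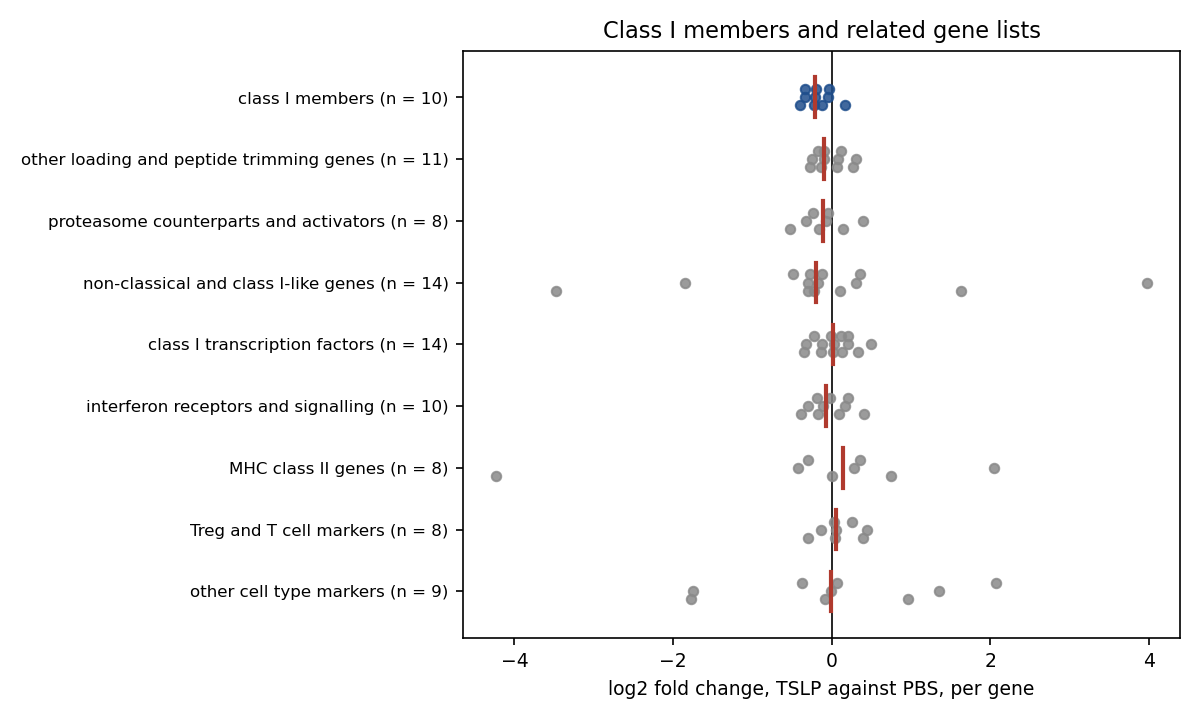
Log2 fold change, TSLP against PBS, of each tested gene in the class I members (blue) and in the related lists (grey), with the median of each list as a red line; n is the number of genes tested. All medians lie between -0.20 and 0.15, and the points beyond 3 in either direction are Ciita, H2-Q10 and Fcgrt, low genes with at least 1 library at 0 reads, whose plotted values depend on the pseudocount.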

How the data were processed

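Per the labels and the study's methods, sorted Treg cells were stimulated, libraries were made from total RNA with a directional kit and read as 50-base single ends, and the authors mapped the reads to mm10 with HISAT2, counted them per gene with HTSeq and used DESeq2. The submitters' notes name the same tools. The gene annotation and the strand setting of the counting were not given in the sources used here. Each deposited value is a signal: a read count that the authors had divided by the size factor of its library. Of these values, 100% gave whole reads within 0.01 of a read once that factor was undone. Of the 24418 gene names, 27 had turned into dates. The table has 4 columns of samples and all were used.

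Values were tested with limma 3.58.1 in R 4.3.3 (trend, log2 of normalized count + 1, genes with a value of at least 10 in at least 2 libraries), TSLP against PBS over all 4 libraries with no covariate, with Benjamini-Hochberg adjustment of the p-values across every gene in the test. The alternatives were edgeR 4.0.16 (quasi-likelihood, TMM) and DESeq2 1.42.0 on the recovered reads, other scalings, pseudocounts and filters, a replicate block, removal of the trend over exon length with and without that block, and each library left out. Removal of the trend over principal transcript length was added after seeing the data. Each test was checked on simulated data. The members and lists were chosen with earlier results of these data known. All 10 members are named, and from each other list the 3 genes with the highest mean and any with an unadjusted p under 0.05; constitutive proteasome subunits are named for ratios, Foxp3 and markers at 0 for the check of the cells, and others after their values were seen. Levels per kilobase used the principal coding transcript of GENCODE release M21, and promoters came from RefSeq (GRCm38.p6). Replicates of a group differed by more than sampling noise (chi-square per degree of freedom 71.8 for PBS and 20.6 for TSLP).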

Additional observations from a re-analysis of the deposited data

How the results depend on the processing

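Outside the fits that left out a library, 12 alternatives were run, and none called a member or any gene at an adjusted p under 0.05. The lowest unadjusted p of a member there was 0.0808 (Tap2). Of 120 log2 fold changes of members, 114 kept their direction and 6 did not. With the exon length trend removed B2m was at 0.15 and Tapbp at 0.012, with and without the replicate block, and with the principal transcript length trend removed B2m was at 0.14 and Nlrc5 at -0.039. The members' median ran from -0.24 (edgeR) to -0.07 (principal transcript length trend removed). The count of all genes at an unadjusted p under 0.05 was 192, 358 with no filter and 388 with the length trend removed and a replicate block.

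The labels number the replicates of both groups but do not say whether samples with the same number were paired. PBS 1 minus PBS 2 and TSLP 1 minus TSLP 2 had a Pearson r of 0.00072 across 11392 genes. This value cannot decide on a pairing, because the deviation of PBS 1 enters the first difference. With the replicate block the members' median stayed at -0.20, and 258 genes and 0 members had an unadjusted p under 0.05.

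Leaving out 1 library at a time gave 0 to 874 genes at an adjusted p under 0.05 and 109 to 2370 at an unadjusted p under 0.05. It gave 0 to 7 members at an unadjusted p under 0.05 and a median from -0.44 to 0.04. The 874 genes and the 7 members both came without PBS 2, and the other 3 fits called 0 genes. Of 40 log2 fold changes of members in these fits, 10 were reversed, 7 of them without PBS 1. The ranges were -0.48 to 0.030 for H2-K1, -0.33 to 0.24 for B2m, -0.29 to 0.041 for Tap1, -0.20 to 0.13 for Tapbp, -0.49 to 0.091 for Psmb9, -0.69 to 0.26 for Psmb10 and -0.21 to 0.55 for Nlrc5. For the other members they were -0.67 to -0.0090 for H2-D1, -0.75 to -0.039 for Psmb8 and -0.47 to -0.21 for Tap2, and the values nearest 0 for H2-D1 and Psmb8 came without PBS 1. The cause was not tested. With 2 libraries a group, the width of the intervals given for the members sets how well a difference is known, and every member had over 400 reads in each library.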

Other observations

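Ciita, the transactivator of MHC class II genes and the counterpart of Nlrc5, was named after its values were seen. It had 13 and 25 reads in the PBS libraries and 0 in both TSLP libraries. Its PBS mean was 6.31-fold that of a limit of 3 reads in each TSLP library, leaving out counting error in the PBS reads. By limma its adjusted p was 0.9999. Fcgrt, a class I-like gene that encodes the heavy chain of the neonatal Fc receptor, went the opposite way. It had 0 reads in both PBS libraries but 17 in TSLP 1 and 13 in TSLP 2. Its TSLP mean was 5.01-fold that of the same limit in the PBS libraries, leaving out counting error in the TSLP reads. The adjusted p by limma was also 0.9999. Ciita and Fcgrt passed the filter only through the group where they were high. Their directions and tests therefore depend on that filter, and no conclusion is drawn from them. Mr1, a class I-like gene that presents vitamin metabolites and was also named after its values were seen, had 122 and 116 normalized counts with PBS and 75.4 and 13.6 with TSLP (log2 fold change -1.85 ± 0.83, SE, limma adjusted p = 0.9999). This value depended on the TSLP library kept, and was -0.65 without TSLP 2 and -3.04 without TSLP 1. In Ciita and Mr1 both TSLP libraries were below both PBS libraries, as in 14.4% of all genes tested. In Fcgrt both were above, as in 14.5% of all genes tested.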
